A study of Mus musculus with 18 samples.

Results

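The late TWEAK inducible genes of murine renal proximal tubular epithelial cells (RPTEC) are the genes that stood further above vehicle at 24 h of TWEAK than at 6 h. Of the 36528 genes in the data, 15521 had enough reads to be tested and 101 met the definition. Primary RPTEC of C57BL/6 mice, bought from a supplier and grown in its medium, were analysed by RNASeq in 6 groups of 3 samples, 18 in all. At 6 h and at 24 h the cells had received vehicle (DMSO), recombinant mouse TWEAK at 100 ng/mL, or the same TWEAK dose with the NIK inhibitor NIK SMI1 at 3 µM. NIK SMI1 was not given alone in any group, and the methods speak of replicates of each treatment without saying whether these were separate cultures, so the p-values measure the spread between these samples, which may be technical.

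TWEAK is a cytokine of the TNF family that acts through its receptor Fn14. The receptor recruits TRAF adaptor proteins, and the kinase NIK then accumulates and leads to processing of the NF-κB precursor p100 (Nfkb2) into p52, which enters the nucleus with RelB. This non-canonical arm is slow and lasting, whereas the canonical arm through p50 and RelA answers within minutes and induces its own inhibitors. In kidney tubules, TWEAK is known as a proinflammatory signal that raises chemokines and adhesion molecules.

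The members were chosen by levels in the vehicle and TWEAK samples, among genes that passed a filter on reads over all 18 samples, and without that filter the same 101 genes were chosen. Levels are given as CPM, the reads of a gene per 1000000 counted reads of the sample, and 0.1 CPM was added to each group mean before ratios were taken. A member had at least 1 CPM on average in TWEAK at 24 h, a TWEAK to vehicle ratio of at least 2 at 24 h, and a 24 h ratio at least 1.5 times the ratio at 6 h (the late ratio). In all, 255 genes were at least 2-fold up at 24 h by this rule, of which 154 were not late. The values that chose the members describe them and were not tested. Just inside the limit on the late ratio were Enpp3 at 1.52, the gene with identifier 102642603 at 1.52, and Bcl2l15 and Syt2 at 1.53, and just outside were Adm at 1.49, Tmem176b at 1.49, Coq8a at 1.47 and Spn at 1.44. For the 24 h ratio the nearest members were Bcl2l15 at 2.02, Fam167a at 2.02, Abcg1 at 2.06 and 4732491K20Rik at 2.06, and the nearest genes left out were Lce1h at 1.99, Adamts6 at 1.99, Tmem44 at 1.97 and BC061237 at 1.96. On the level in TWEAK at 24 h, 3830432H09Rik with 1.04 CPM, Gm5486 with 1.15, Gm2245 with 1.17 and Abcg1 with 1.197 were just in, while Cadm3 with 0.996 CPM, Sox8 with 0.979, Septin3 with 0.970 and A830018L16Rik with 0.930 were just out.

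**Figure D1:**
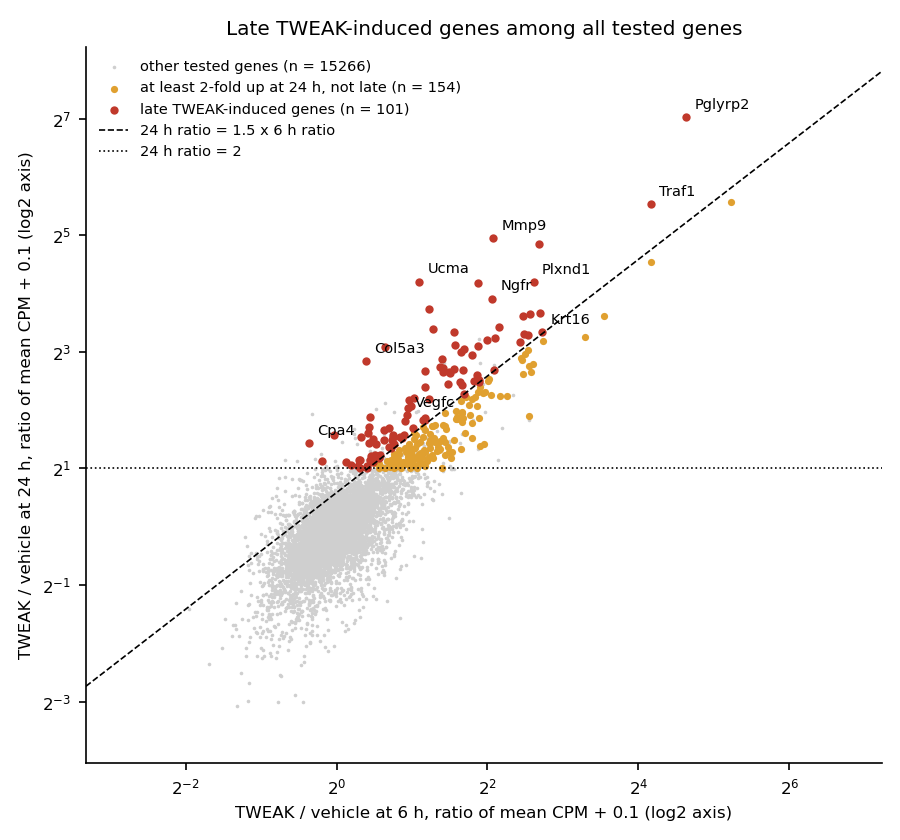
TWEAK to vehicle ratio at 24 h (vertical, log2 axis) against the ratio at 6 h (horizontal, log2 axis) for the 15521 tested genes, with the 101 members in red, the 154 other genes at least 2-fold up at 24 h in orange, and lines at the limits of the rule. Members lie above both lines, from Cpa4 at 0.774 to Pglyrp2 at 24.8 on the horizontal axis, and grey points above both lines had under 1 CPM in TWEAK at 24 h.

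Between 18040966 and 51956444 reads were counted per sample, so that 3 reads equal 0.0577 to 0.166 CPM, and samples of a group differed by more than sampling noise in every pair. The cells expressed epithelial genes strongly, with a summed level of 8 markers of 10590 to 15060 CPM, but 12 proximal tubule markers summed to 15.6 to 19.7 CPM, and Slc22a8 and Miox had no read in any group. Reads of pancreatic islet genes were present in part of the libraries. A list of 16 islet markers summed to 20.4, 0.899 and 6.48 CPM in the 3 TWEAK samples at 24 h, to 0.654 to 0.975 CPM in those with NIK SMI1 at 24 h, where Ins1, Ins2 and Gcg had no read, and to 20.9 to 42.0 CPM in the other 12 samples. No islet marker was a member, but of the 11 tested TWEAK raised 0 and lowered 7 at 24 h. Their absence thus follows from the rule and says nothing about the part of islet reads in the results. The counts of lowered members at 24 h are given below also against TWEAK sample 2 alone, in which Ins1, Ins2 and Gcg had no read. The labels do not give the source of the islet reads, and whether they came from the cultures was not tested. For RNA of the cultures themselves, fewer cells of a type and less RNA per cell cannot be told apart.

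The members were induced 2.02-fold to 130-fold by TWEAK at 24 h, with a median ratio of 4.18, against a median of 2.02 at 6 h. The late ratio reached 8.61 and had a median of 1.96. Of the 101 members, 51 were already at least 2-fold above vehicle at 6 h, 32 were under 1.5-fold and 3 (Cpa4, Lce1g and Gm28802) were below vehicle. The TWEAK mean was higher at 24 h than at 6 h in 96 members, the exceptions being Abcb1a, Lilrb4a, Lilr4b, Fam167a and Sdcbp2. Vehicle levels moved too, being lower at 24 h in 69 members, and in 24 of these the fall in vehicle was larger than the rise in TWEAK on the log2 scale. In 61 members the rise in TWEAK alone was at least 1.5-fold. A rise in TWEAK and a fall in vehicle both raise the late ratio, so the rule favours both. These counts describe the choice of members and are no result about them. Most members were weakly expressed. Their mean in TWEAK at 24 h ran from 1.04 to 181 CPM with a median of 5.53, 23 members had less than 2 CPM and 39 had 10 CPM or more. Per length, the levels deposited as RPKM ran from 0.123 for Junos to 59.4 for Ifitm3 with a median of 1.77.

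By identity, 85 members were protein coding, 12 were long noncoding RNAs, 1 was another RNA class and 3 identifiers had no entry in the RefSeq table. Chromosome 1 held 20 members, or 12 without the Ugt1a genes, among them the adjacent receptor genes Il1rl1, Il18r1 and Il18rap and the adjacent genes Syt2 and Ppp1r12b. Lilr4b and Lilrb4a, Xirp2 and B3galt1, and Ccdc33 and Stra6 were further pairs of neighbouring protein coding members. The shares over all tested genes are not given here for chromosome 1 or for neighbours. These positions are therefore descriptions, and no clustering of the members is read from them. The spans of 18 members overlapped another member. Others overlapped a stronger gene that was not a member, such as Gm33436 (1.42 CPM in TWEAK at 24 h) with Itgb6 (65.8 CPM). Itgb6 was itself raised by TWEAK and lowered by NIK SMI1 at 24 h. Further cases were Gm36470 (2.31 CPM) with Cdk6 (212 CPM) and Stab1 (6.84 CPM) with Nt5dc2 (13.2 CPM). Libraries of this kit do not mark the strand, so reads of overlapping genes cannot be assigned to one of them, as for Slc13a2 and its antisense RNA Slc13a2os, whose log2 CPM correlated at r = 0.987 over the 18 samples (a description, since the samples share libraries and treatments), and for Stra6 with Ccdc33 (r = 0.950), C1qtnf1 with Gm11747 (r = 0.960), Vegfc with Gm33153 (r = 0.965) and Fyb with Gm2245 (r = 0.931).

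**Figure D2:**
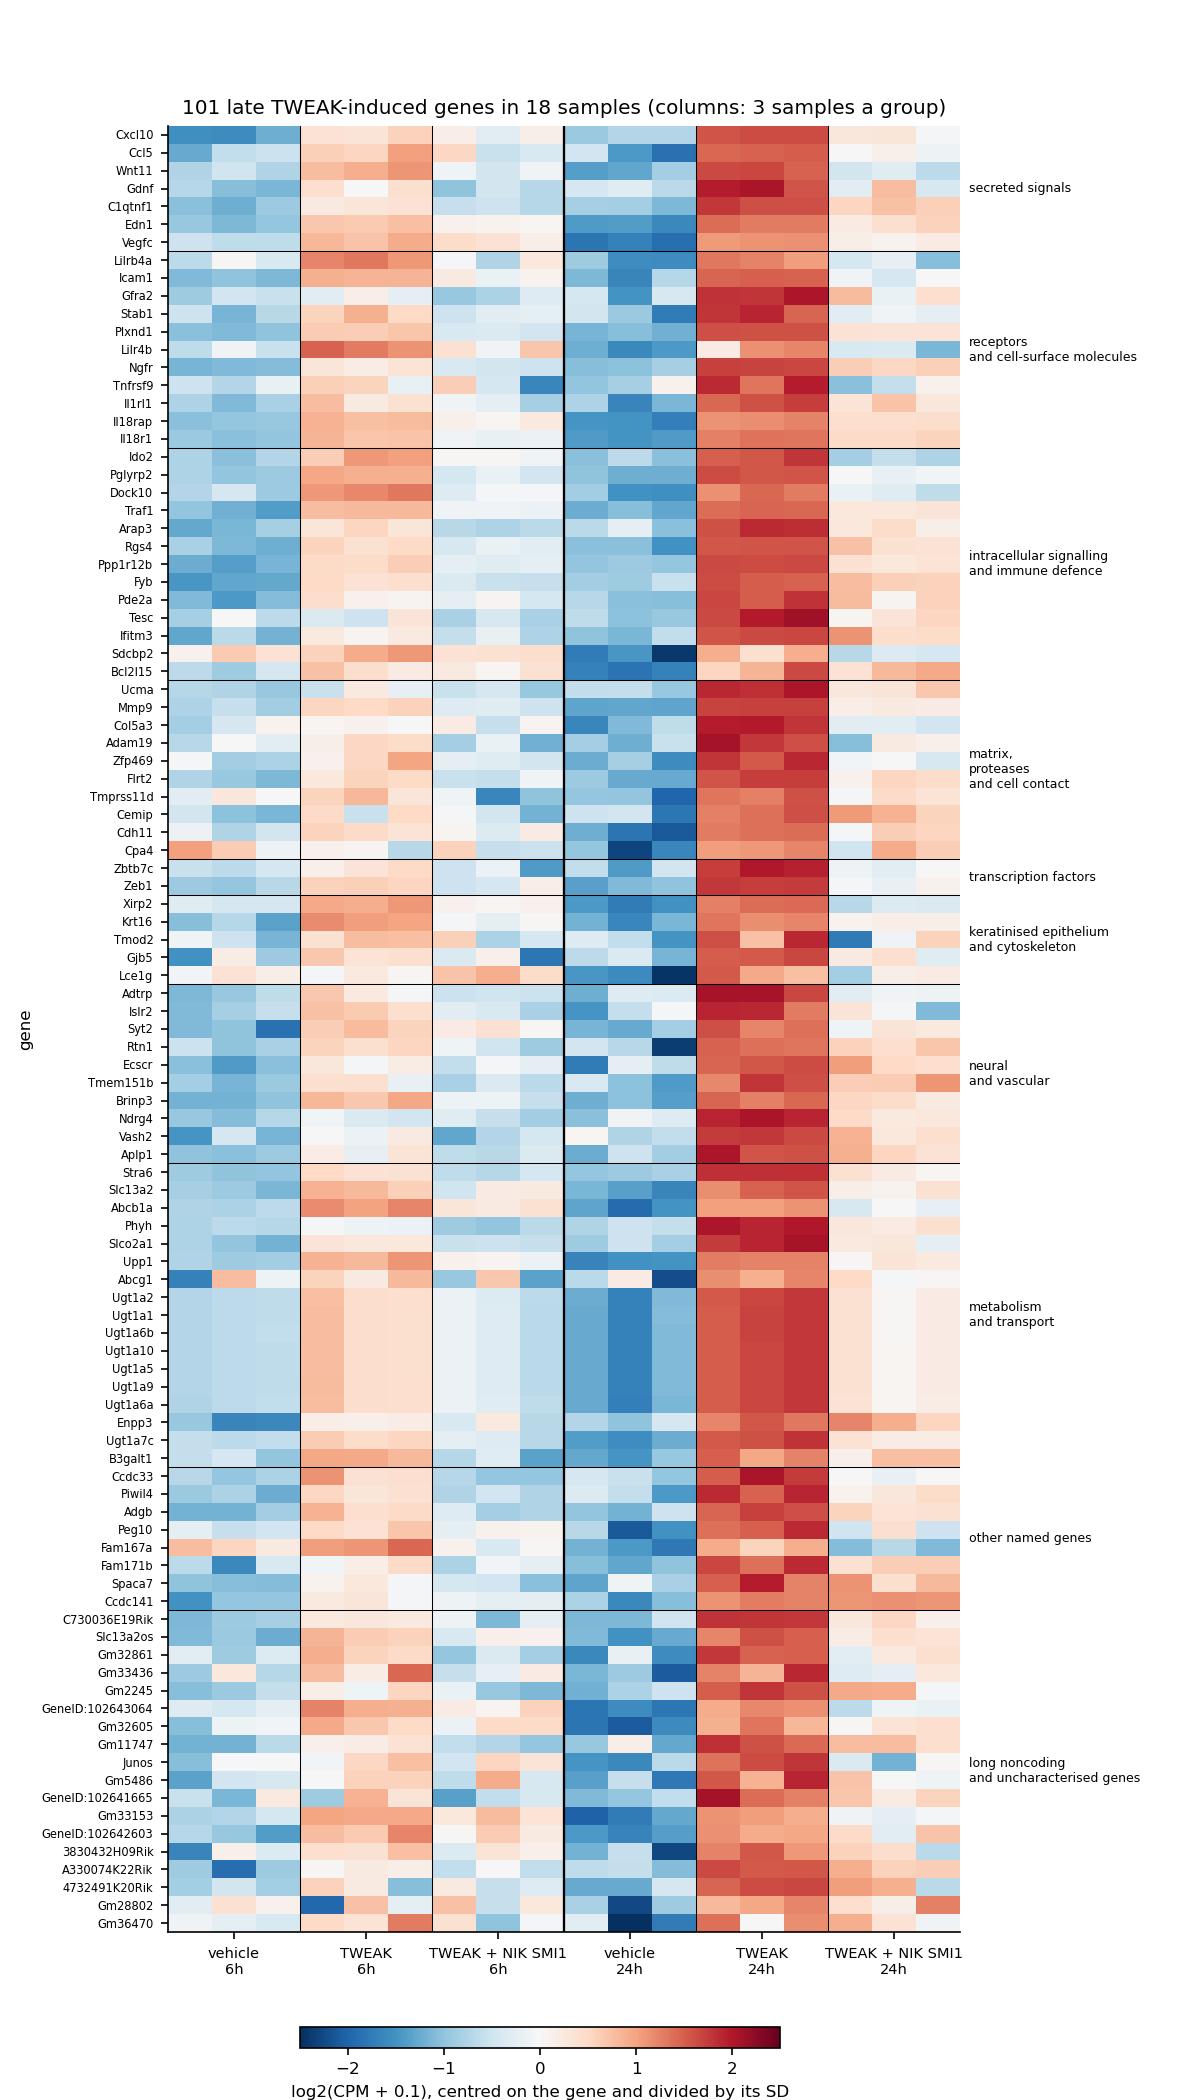
Log2(CPM + 0.1) of each of the 101 members (rows, grouped by function) in each of the 18 samples (columns, 3 per group), centred on the gene and divided by its SD. The TWEAK samples at 24 h hold the highest values for most members, and the samples with TWEAK and NIK SMI1 at 24 h lie between them and vehicle.

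Promoters of the members were read from RefSeq (mouse, GRCm38.p6) for the 250 bases before each annotated start. The table held 124 promoters for 78 of the 101 members. The AP-1 motif TGANTCA, bound by Jun and Fos family dimers, stood on either strand in 21 of the 124 promoters, or 16.9%, against 9.09% of the promoters of the other induced genes, 4.90% of those of all tested genes and 6.75% of all promoters in the table. A loose κB motif (GGG and CC with any 5 bases between), which contains the strict one, was in 48.4% of the members' promoters, against 57.8% of those of the other induced genes, 59.99% of those of all tested genes and 45.8% of all promoters. The strict κB motif (GGGA and TTCC with any 2 bases between) was in 3 of the members' promoters (2.42%), against 3.90% of those of the other induced genes, 1.22% of those of all tested genes and 1.21% of all promoters. The interferon-response motif (GAAA repeated after any 2 bases) was also in 3, or 2.42%, against 1.95%, 2.39% and 2.98% in the same order, and the STAT motif TTCNNNGAA in 9, or 7.26%, against 6.49%, 5.82% and 7.02%. These shares are descriptions, promoters of 1 gene can overlap, and a match is not evidence of binding. The stretches below show the AP-1 matches of 7 members from several functional groups, and in Cxcl10 and Ifitm3 also the strict κB match and in Cxcl10 the interferon-response match. Each stretch is shown because it carries such a match. Matches are in capitals, on either strand, and sequences run 5′ to 3′ on the strand of the gene.
Cxcl10 (chr5:92348927-92349132, minus strand): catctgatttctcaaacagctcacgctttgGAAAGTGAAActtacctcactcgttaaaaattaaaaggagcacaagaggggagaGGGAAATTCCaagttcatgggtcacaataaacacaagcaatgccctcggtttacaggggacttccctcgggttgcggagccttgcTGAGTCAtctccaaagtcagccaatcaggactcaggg
Ifitm3 (chr7:141010813-141010890, minus strand): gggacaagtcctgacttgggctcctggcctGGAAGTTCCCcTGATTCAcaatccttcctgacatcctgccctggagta
Tnfrsf9 (chr4:150927954-150927998, plus strand): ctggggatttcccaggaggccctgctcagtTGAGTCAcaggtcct
Adam19 (chr11:46055823-46055889, plus strand): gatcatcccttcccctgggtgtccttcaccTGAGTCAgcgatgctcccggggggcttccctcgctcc
Upp1 (chr11:9117933-9117999, plus strand): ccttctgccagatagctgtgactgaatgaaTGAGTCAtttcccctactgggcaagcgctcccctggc
Xirp2 (chr2:67445865-67445931, plus strand): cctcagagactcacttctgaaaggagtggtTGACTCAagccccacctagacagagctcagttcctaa
Vash2 (chr1:190979205-190979248, minus strand): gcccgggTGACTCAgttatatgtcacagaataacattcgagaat
In Ifitm3 the strict κB and AP-1 matches were separated by a single base, and in Cxcl10 the AP-1 match lay closest to the start site.

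NIK SMI1 lowered nearly the whole group at 24 h. All 101 members had a lower fitted level in TWEAK with NIK SMI1 than in TWEAK, and 89 (88.1%) passed the test (edgeR quasi-likelihood test, Benjamini-Hochberg adjusted over all tested genes), where 8.29% of all tested genes were lower. No member was higher (10.2% of all tested genes were), also not at an unadjusted p under 0.05 or by DESeq2. The ratios of the rule used the TWEAK samples but not those with NIK SMI1. The median log2 fold change was -0.98 (quartiles -1.71 and -0.64), against -0.71 for the other induced genes, of which 138 of 154 (89.6%) were lower, and 0.0083 for all tested genes. By the rule the members were also induced more, with a median TWEAK effect at 24 h of log2 2.35 against 1.40 for the others. The size of the decrease is therefore not compared at equal induction. The decrease exceeded 1.5-fold in 76 members (75.2%), where 1.75% of all tested genes did so, and in 99 of the 154 others (64.3%). In 96 members all 3 samples with NIK SMI1 lay below all 3 TWEAK samples, which held for 15% of all tested genes. When each TWEAK sample at 24 h in turn was kept out of the choice of members and then served as the only reference, the median was -0.87, -0.87 and -0.93, which are differences of log2(CPM + 0.1). Against TWEAK sample 2, the one with the fewest islet reads, 81 members were lower and the median was -0.91 (a fit in which this single sample was assumed to vary like the other groups). The members that lost the call there were Tmprss11d, Ecscr, Fam171b, Gjb5, Tmod2, Gm33436, Gm5486 and the gene with identifier 102642603, and all secreted signals, receptors and transcription factors kept it.

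The share of the induction that was kept with NIK SMI1 was taken as the rise above mean vehicle divided by the rise of TWEAK above mean vehicle, in CPM. Its median over members was 33.6% at 24 h, against 37.3% for the other induced genes. It was under 25% in 37 members, 25 to 50% in 49, 50 to 75% in 12 and 75% or more in 3.

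**Figure D3:**
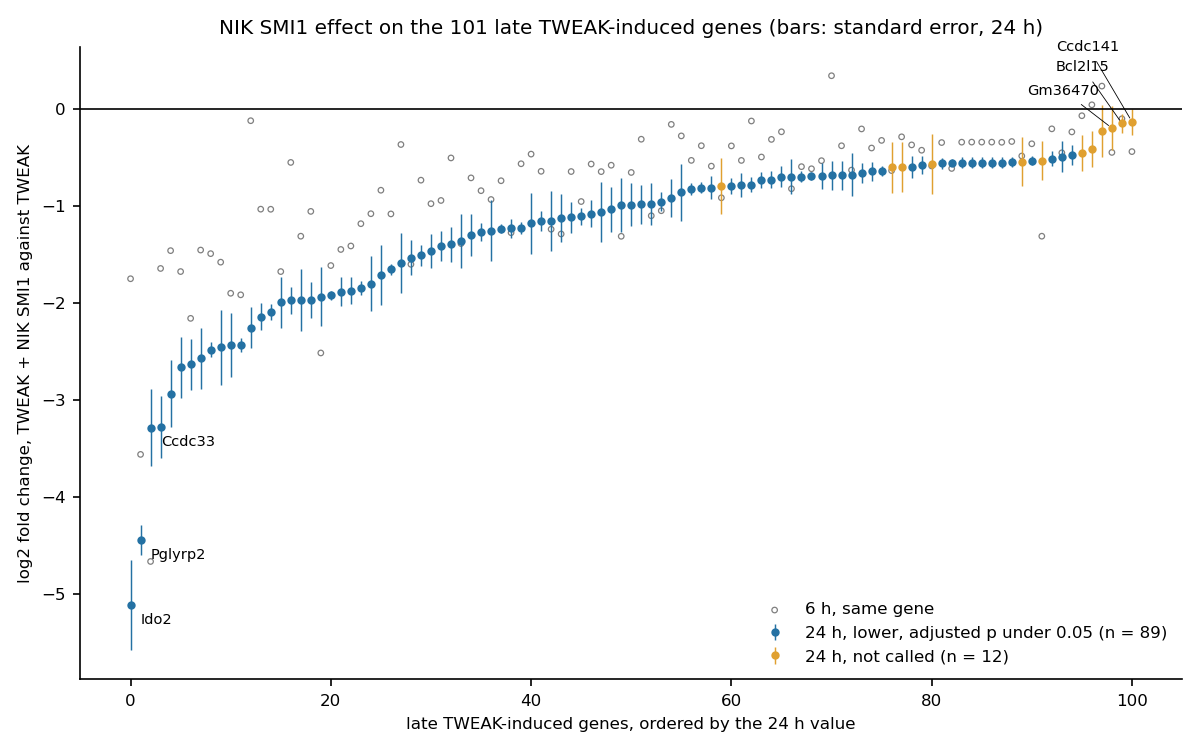
Log2 fold change of TWEAK with NIK SMI1 against TWEAK at 24 h (filled points with standard error, vertical axis) for the 101 members in order of that value (horizontal axis), with the 6 h value of the same gene as open points. The 24 h values run from -5.12 for Ido2 to -0.13 for Ccdc141, all below 0, and the 12 members that did not pass the test are orange.

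The members are taken below by function, from signals that leave the cell to noncoding transcripts, and were assigned to these functions by hand from general knowledge. Among 7 secreted signals, all 7 were lowered by NIK SMI1 at 24 h with a median log2 fold change of -1.12. Cxcl10, a chemokine that draws activated T cells, was at 0.865, 1.06 and 1.07 CPM with vehicle, 10.3, 10.9 and 10.9 CPM with TWEAK and 2.96, 3.04 and 2.15 CPM with TWEAK and NIK SMI1 at 24 h. The samples with NIK SMI1 lay below every TWEAK sample and above every vehicle sample. NIK SMI1 lowered Cxcl10 by a log2 fold change of -1.97 ± 0.14 (SE) (edgeR adjusted p = 2.39e-11). Ccl5, a chemokine for T cells and monocytes, went from 0.304, 0.102 and 0.0488 CPM with vehicle to 1.498, 1.54 and 1.601 CPM with TWEAK. With NIK SMI1 it was at 0.474, 0.522 and 0.422 CPM, below every TWEAK sample (log2 -1.71 ± 0.31 (SE), edgeR adjusted p = 1.77e-04). Edn1, which encodes the vasoconstrictor endothelin, was far more abundant, with 52.3, 49.5 and 49.5 CPM in TWEAK at 24 h against 9.49, 9.59 and 8.39 CPM in vehicle and 25.5, 28.6 and 31.9 CPM with NIK SMI1, and it kept 47.2% ± 7.67 (SD over the 3 samples with NIK SMI1) of its induction. Vegfc, a growth factor of lymphatic vessels, had the highest level per length of these 7 genes (48.2 RPKM) and kept 51.8% ± 2.39. Its vehicle level fell from 43.4 ± 1.46 CPM (SD, n = 3) at 6 h to 25.1 ± 1.14 CPM at 24 h while TWEAK went from 82.9 ± 4.09 CPM to 94.7 ± 1.83 CPM, so that most of its late ratio came from vehicle. Wnt11, Gdnf and C1qtnf1 made up the rest, and Wnt11, a Wnt ligand of kidney branching, and Gdnf, the ligand of the Ret receptor complex, kept only 16.3% ± 4.89 and 15.8% ± 21.7.

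Receptors and other surface molecules showed the deepest median decrease of the larger groups, -1.80 on the log2 scale, and all 11 were lowered. Ngfr, the low-affinity neurotrophin receptor of the TNF receptor family, had 4.68, 4.82 and 5.91 CPM with vehicle, 80.05, 78.1 and 78.04 CPM with TWEAK and 26.01, 23.7 and 25.6 CPM with NIK SMI1 at 24 h. Its TWEAK samples at 6 h were at 19.04, 16.98 and 19.99 CPM, far below those at 24 h, while the vehicle means were 4.401 CPM at 6 h and 5.13 CPM at 24 h. The NIK SMI1 effect at 24 h was -1.65 ± 0.060 (SE) (edgeR adjusted p = 2.45e-17). Plxnd1, a semaphorin receptor, behaved in the same order with 116, 114 and 114 CPM in TWEAK, 31.2, 29.7 and 30.4 CPM with NIK SMI1 and 6.08, 6.75 and 5.81 CPM in vehicle, and kept 22.2% ± 0.673 of its induction. Icam1, the adhesion molecule that holds leukocytes through their integrins, had 1.12, 0.659 and 1.66 CPM in vehicle, 12.03, 12.4 and 12.1 CPM in TWEAK and 2.96, 2.17 and 3.19 CPM with NIK SMI1 (log2 -2.14 ± 0.14 (SE), edgeR adjusted p = 3.18e-12).

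The 3 adjacent interleukin receptor genes on chromosome 1 kept more of their induction. Il18r1, the ligand-binding chain of the interleukin 18 receptor, was the most abundant member, at 176, 184 and 181 CPM in TWEAK at 24 h, against 122, 121 and 127 CPM with NIK SMI1 and 50.1, 48.4 and 50.03 CPM in vehicle. Its partner chain Il18rap was at 130.0, 134 and 141 CPM, 83.8, 83.7 and 84.7 CPM and 25.3, 25.01 and 21.7 CPM in the same order. They kept 56.4% ± 2.23 and 54.1% ± 0.4899, and Il1rl1, the receptor of interleukin 33, kept 43.1% ± 9.32. The NIK SMI1 effects were -0.55, -0.69 and -0.78 on the log2 scale, and all passed the test. In contrast, Tnfrsf9, the costimulatory receptor 4-1BB, was at 1.37, 1.07 and 1.43 CPM with TWEAK but 0.316, 0.406 and 0.585 CPM with NIK SMI1, which overlapped the vehicle values of 0.327, 0.355 and 0.586 CPM, and its share kept was 1.48% ± 15.8. Gfra2 (a coreceptor of the Gdnf family), Stab1 (a scavenger receptor) and the leukocyte immunoglobulin-like receptors Lilrb4a and Lilr4b were at 1.502 to 6.84 CPM in TWEAK at 24 h on average and kept 12.7 to 19.9%. Lilrb4a and Lilr4b are close paralogues, and reads that match both would have been dropped.

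**Figure D4:**
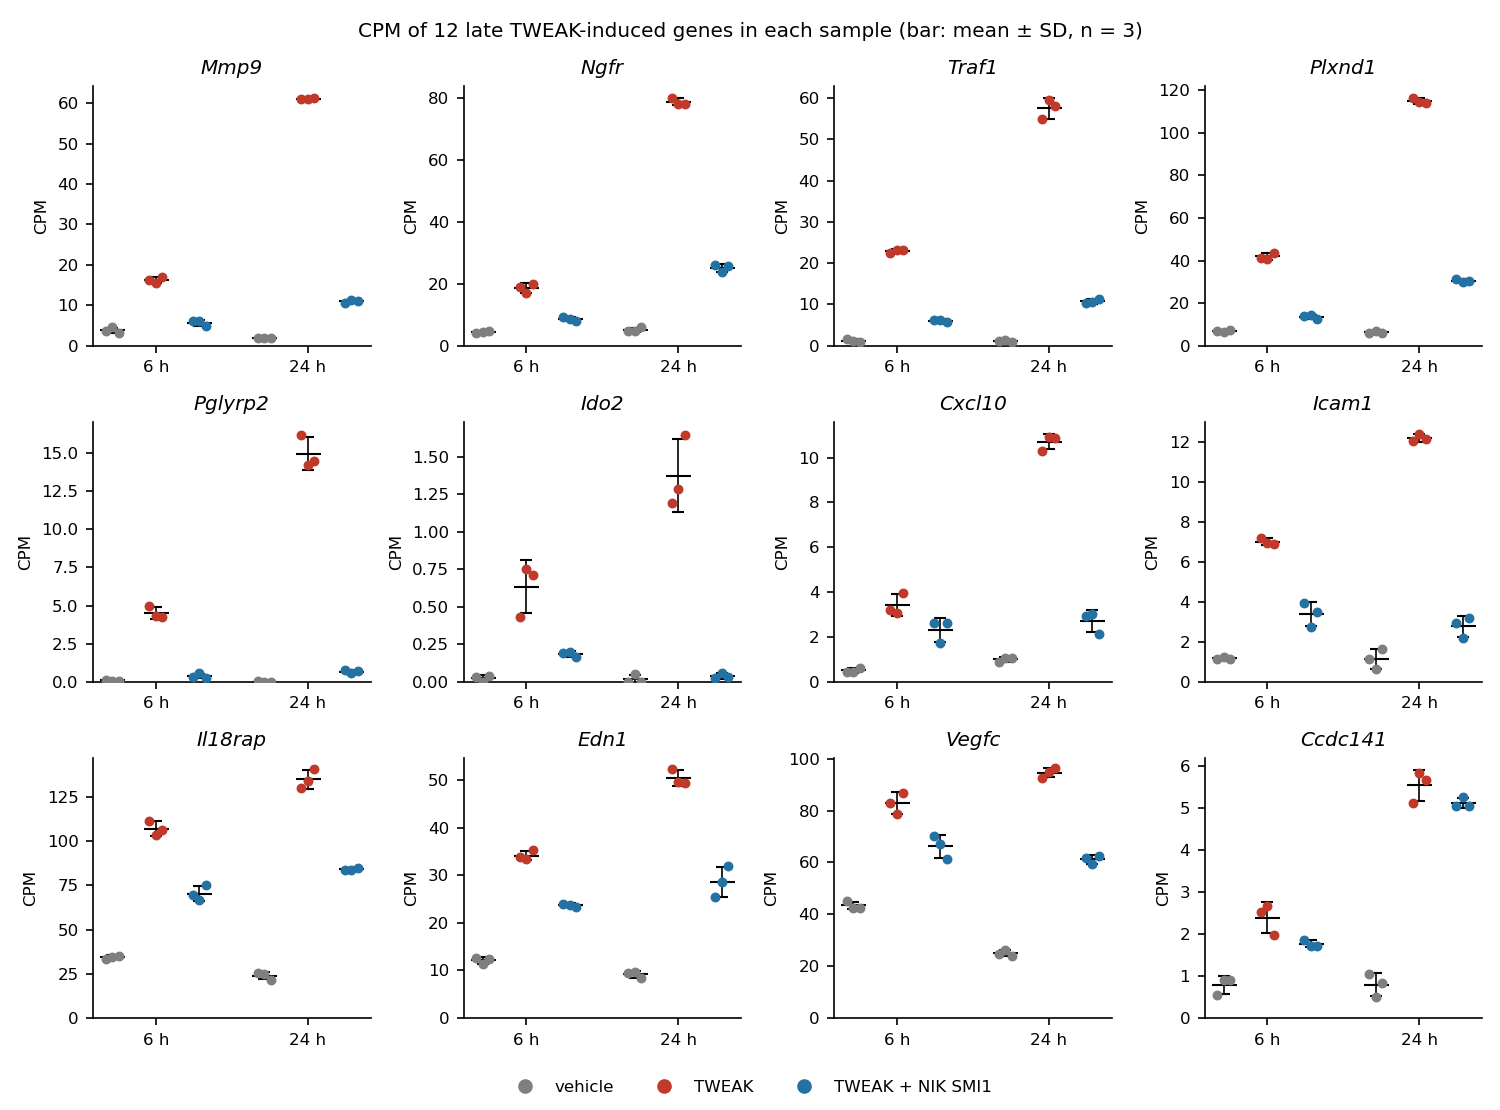
CPM of 12 members in each sample (points) with the mean and SD of the 3 samples (bars), for vehicle, TWEAK and TWEAK with NIK SMI1 at 6 h and 24 h. Mmp9 rises from 16.2 CPM at 6 h to 61.1 CPM at 24 h under TWEAK and is at 10.7 to 11.2 CPM with NIK SMI1 at 24 h. At 24 h Ccdc141 has 5.53 CPM with TWEAK and 5.11 CPM with TWEAK and NIK SMI1.

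Among 13 genes of intracellular signalling and immune defence, 12 were lowered, and this group held the largest induction. Pglyrp2, a peptidoglycan amidase of antibacterial defence, had 2, 0 and 0 reads in the vehicle samples at 24 h and 16.2, 14.2 and 14.46 CPM in TWEAK, up from 4.998, 4.33 and 4.25 CPM at 6 h. With NIK SMI1 it reached 0.7897, 0.551 and 0.682 CPM (log2 -4.45 ± 0.16 (SE), edgeR adjusted p = 1.73e-17). Its ratio of 130 carries the added 0.1 CPM. Ido2, an enzyme of tryptophan breakdown, was weaker, at 1.19, 1.28 and 1.65 CPM in TWEAK at 24 h, and had 1, 2 and 1 reads with NIK SMI1 against 27, 60 and 69 in TWEAK. The fitted log2 fold change of -5.12 ± 0.47 (SE) (edgeR adjusted p = 3.29e-09) rests on these few reads. Traf1, an adaptor of TNF receptors and a known NF-κB target, was at 1.05, 1.42 and 0.976 CPM in vehicle, 54.9, 59.7 and 58.1 CPM in TWEAK and 10.4, 10.5 and 11.4 CPM with NIK SMI1. Its samples with NIK SMI1 lay below every TWEAK sample and above every vehicle sample, and it kept 16.99% ± 0.991 of its induction. Rgs4 (a brake on G protein signalling), Dock10 (a guanine nucleotide exchange factor), Arap3 (a GTPase-activating protein) and Fyb (an adaptor of immune cells) were lowered by log2 values of -1.87, -2.63, -1.88 and -1.23. Ppp1r12b, a regulatory subunit of myosin phosphatase, was abundant with 90.5, 89.4 and 90.2 CPM in TWEAK and 39.6, 37.03 and 38.6 CPM with NIK SMI1. Ifitm3, a membrane protein that blocks virus entry, had the highest level per length of all members and kept 50.4% ± 17.6. Bcl2l15, a Bcl-2 family protein, was the exception, with 6.92, 7.51 and 9.23 CPM in TWEAK and 6.63, 7.42 and 7.702 CPM with NIK SMI1 (log2 -0.15 ± 0.099 (SE), edgeR adjusted p = 0.363), and it kept 84.3% ± 13.8. At 24 h a list of 10 leukocyte markers summed to 24.3 to 26.1 CPM in TWEAK and 19.9 to 21.1 CPM with NIK SMI1. In vehicle the sum was 21.3 to 22.6 CPM, and Cd3e and Tyrobp had no read in any group. Of the 2 markers tested, Csf1r was raised by TWEAK (log2 0.57, edgeR adjusted p = 2.37e-05) at 24 h. NIK SMI1 lowered Csf1r (-0.52, edgeR adjusted p = 1.07e-04), while Cd68 passed neither test. The part of the leukocyte markers in these results was not tested.

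The 10 genes of matrix, proteases and cell contact included the members with the highest late ratios, and 8 were lowered. Mmp9, the gelatinase of matrix turnover, was at 60.98, 61.1 and 61.3 CPM in TWEAK at 24 h, against 10.7, 11.2 and 11.1 CPM with NIK SMI1 and 1.87, 1.93 and 1.85 CPM in vehicle. At 6 h TWEAK had brought it only to 16.2, 15.4 and 16.9 CPM. NIK SMI1 lowered it by a log2 fold change of -2.48 ± 0.073 (SE) (edgeR adjusted p = 2.96e-19). Ucma, a cartilage matrix protein, had the highest late ratio of all members. It was at 0.0575, 0.278 and 0.132 CPM in TWEAK at 6 h, at 2.25, 2.14 and 2.63 CPM at 24 h and at 0.293, 0.319 and 0.52 CPM with NIK SMI1 at 24 h. Col5a3, a fibrillar collagen chain, was within 1.31-fold of vehicle at 6 h by group means but reached 4.49, 4.54 and 4.01 CPM in TWEAK at 24 h, against 0.327, 0.507 and 0.732 CPM in vehicle and 0.948, 0.957 and 0.812 CPM with NIK SMI1 (-2.25 ± 0.21 (SE), edgeR adjusted p = 4.94e-09). Adam19, a membrane metalloprotease, kept 16.1% ± 17.4, whereas Cdh11, a mesenchymal cadherin, kept 57.3% ± 12.8. Zfp469, whose human counterpart is tied to corneal collagen, was the most abundant of the group at 94.9, 88.5 and 97.9 CPM in TWEAK and 55.5, 56.5 and 50.6 CPM with NIK SMI1. The hyaluronan-binding Cemip (log2 -0.60, edgeR adjusted p = 0.125) and the carboxypeptidase Cpa4 (log2 -0.41, edgeR adjusted p = 0.148) did not pass. Cpa4 was below vehicle at 6 h of TWEAK. A list of 8 fibroblast markers summed to 19.5 to 24.98 CPM in TWEAK, 19.2 to 22.7 CPM with NIK SMI1 and 21.0 to 23.3 CPM in vehicle at 24 h, so these sums overlapped. Single markers moved in both directions. Of the 5 tested, TWEAK raised 1 (Postn, log2 0.66, edgeR adjusted p = 1.44e-04) and lowered 1 (Acta2, -0.54, edgeR adjusted p = 0.0245) at 24 h. NIK SMI1 lowered 1 (Postn, -0.50, edgeR adjusted p = 0.00313) and raised 0. The part of these markers in the results was not tested.

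Both members assigned to the group of transcription factors were lowered. Zeb1, a repressor of epithelial genes, was at 1.82, 2.13 and 2.25 CPM in vehicle, 11.4, 11.2 and 11.3 CPM in TWEAK and 3.99, 3.65 and 4.36 CPM with NIK SMI1 at 24 h (-1.50 ± 0.11 (SE), edgeR adjusted p = 4.09e-11). Zbtb7c, a zinc finger protein, was at 2.03, 2.67 and 2.46 CPM in TWEAK and only 0.248, 0.203 and 0.292 CPM with NIK SMI1, and its 3 samples with NIK SMI1 were above all vehicle samples without passing the test (edgeR adjusted p = 0.137). All 5 genes of keratinised epithelium and the cytoskeleton were lowered. Krt16, a keratin of stressed epidermis, was near its full level at 6 h, with 3.16, 2.76 and 2.61 CPM in TWEAK at 6 h and 3.66, 3.12 and 3.27 CPM at 24 h. Xirp2, an actin-binding protein of striated muscle, was at 69.8, 78.3 and 79.3 CPM in TWEAK at 24 h and 14.9, 19.8 and 19.5 CPM with NIK SMI1, while vehicle fell from 19.1 ± 1.11 CPM at 6 h to 7.41 ± 0.922 CPM. Gjb5 (a connexin), Tmod2 (which caps actin filaments) and Lce1g (of the cornified envelope) were at 1.60 to 4.96 CPM in TWEAK at 24 h. The call of Tmod2 was lost without NIK SMI1 sample 1 (edgeR adjusted p = 0.0805) or TWEAK sample 3 (0.0671), and against TWEAK sample 2 alone Gjb5 and Tmod2 did not pass, so that 3 of the 5 did.

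Of 17 genes of metabolism and transport, 14 were lowered, but by the smallest median, -0.55 on the log2 scale. That median lies within the values of the 8 Ugt1a genes. The group also had the lowest median TWEAK to vehicle ratio at 24 h (2.21), so its decrease is not compared with other groups at equal induction. The 8 Ugt1a genes, which encode enzymes that attach glucuronic acid to bilirubin, hormones and drugs, make up much of this group and are not independent. They share their last exons, and 7 of them differed by at most 1.02-fold in every sample, so they count in effect as 1 measurement. Ugt1a2 can stand for these 7, with 19.4, 17.3 and 20.2 CPM in vehicle, 40.7, 42.1 and 43.2 CPM in TWEAK and 29.9, 27.5 and 28.5 CPM with NIK SMI1 at 24 h (log2 -0.56 ± 0.055 (SE), edgeR adjusted p = 1.27e-08). Its excess over the lowest of them was only 0.53 CPM in TWEAK at 24 h, or 1.26% of its level. The values of these 7 genes are thus nearly all reads of shared exons, which cannot be assigned to 1 gene and can come from Ugt1a7c. They do not show that each of the 7 was expressed or induced. The excess of Ugt1a7c over the lowest of the others, which are reads of its own, averaged 12.2 CPM (SD 0.411, n = 3) for the vehicle samples at 24 h, 27.4 CPM (SD 1.48) for the TWEAK samples and 19.4 CPM (SD 0.589) after NIK SMI1 was added. With the 8 genes counted once, 82 of 94 members were lowered at 24 h and the median was -1.07.

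Outside this locus, Stra6, the cellular receptor for retinol-binding protein, had the largest decrease of the group with 53.05, 53.4 and 53.5 CPM in TWEAK at 24 h, against 16.9, 14.6 and 12.8 CPM with NIK SMI1 and 5.73, 5.99 and 6.44 CPM in vehicle (-1.85 ± 0.071 (SE), edgeR adjusted p = 1.06e-16). Phyh, which breaks down phytanic acid in peroxisomes, was 1.36-fold above vehicle at 6 h and 3.68-fold at 24 h, where it had 31.9, 30.01 and 31.6 CPM in TWEAK and 13.2, 12.8 and 14.01 CPM with NIK SMI1. Upp1, a uridine phosphorylase, was at 53.7, 52.8 and 52.8 CPM in TWEAK and 30.4, 34.9 and 33.5 CPM with NIK SMI1 and kept 47.3% ± 6.04. The prostaglandin transporter Slco2a1, the drug efflux pump Abcb1a and the dicarboxylate transporter Slc13a2 kept 23.6% ± 9.09, 31.1% ± 7.17 and 30.8% ± 5.7. Abcb1a was not higher in TWEAK at 24 h (20.7 ± 0.825 CPM) than at 6 h (21.9 ± 1.65 CPM), and it entered through a vehicle level that fell from 5.92 ± 0.304 CPM to 3.302 ± 0.699 CPM. The ectonucleotidase Enpp3, the sterol exporter Abcg1 and the galactosyltransferase B3galt1 were at 1.197 to 2.16 CPM and did not pass at 24 h.

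All 10 genes assigned to nerve and vessel functions were lowered, with a median of -1.01. Brinp3, named for a neural inhibitor of proliferation, was at 15.8, 13.8 and 15.4 CPM in TWEAK, 8.32, 7.95 and 6.83 CPM with NIK SMI1 and 2.502, 2.89 and 2.25 CPM in vehicle at 24 h. Ndrg4 and Aplp1, a relative of the amyloid precursor, were at 22.6 ± 0.625 CPM and 15.7 ± 1.67 CPM in TWEAK and kept 24.4% ± 4.57 and 43.7% ± 10.5. Syt2, a calcium sensor of vesicle release, was at 5.16, 3.83 and 4.33 CPM in the 3 TWEAK samples at 24 h and at 1.35, 1.91 and 1.79 CPM with NIK SMI1. The part of the islet reads in its values was not tested. Vash2 (an angiogenesis factor and tubulin carboxypeptidase), Ecscr (of endothelial cells) and Adtrp (a regulator of tissue factor pathway inhibitor) were at 7.06 ± 0.171 CPM, 3.29 ± 0.238 CPM and 1.43 ± 0.267 CPM in TWEAK. Their decreases with NIK SMI1 were -0.69, -1.03 and -2.94 on the log2 scale. A list of 6 endothelial markers summed to 0.705 to 0.956 CPM in TWEAK, 0.390 to 0.841 CPM with NIK SMI1 and 0.244 to 0.659 CPM in vehicle at 24 h, with TWEAK above vehicle in every sample, Emcn without a read in any group and Cdh5 raised by TWEAK (log2 1.57 ± 0.57 (SE), edgeR adjusted p = 0.0307), and its part in these results was not tested. Tmem151b and, against TWEAK sample 2 alone, Ecscr lost the call in an alternative, Tmem151b with edgeR adjusted p = 0.0637 and 0.0555 without NIK SMI1 sample 1 or 2 and 0.0873 without TWEAK sample 2.

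The remaining 26 members were 8 named genes of other functions, of which 7 were lowered, and 18 long noncoding or uncharacterised genes, of which 13 were lowered. C730036E19Rik had the highest late ratio of the noncoding genes (4.89), with 2.33, 2.29 and 2.25 CPM in TWEAK at 24 h against 0.361, 0.493 and 0.292 CPM with NIK SMI1 (edgeR adjusted p = 6.44e-07) and 0, 0 and 2 reads in vehicle. Gm32605 followed with a late ratio of 4.36, and was at 1.06, 1.56 and 1.004 CPM in TWEAK and 0.474, 0.638 and 0.682 CPM with NIK SMI1 (edgeR adjusted p = 0.0143), a call that was lost without NIK SMI1 sample 1 (edgeR adjusted p = 0.0796) or TWEAK sample 2 (0.135). Of the named genes, Ccdc33, which overlaps Stra6, had the largest decrease, from 1.06, 1.82 and 1.36 CPM in TWEAK to 0.158, 0.116 and 0.163 CPM with NIK SMI1 (-3.29 ± 0.40 (SE), edgeR adjusted p = 4.48e-07). Junos, the antisense transcript at Jun, was at 1.89, 2.06 and 2.15 CPM in TWEAK and 1.13, 0.8699 and 1.27 CPM with NIK SMI1. Ccdc141 kept the most of all members. It was at 1.05, 0.507 and 0.8298 CPM in vehicle, 5.11, 5.82 and 5.67 CPM in TWEAK and 5.05, 5.25 and 5.04 CPM with NIK SMI1, an effect of -0.13 ± 0.13 (SE) (edgeR adjusted p = 0.602) with 91.2% ± 2.48 of the induction kept.

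The 12 members that did not pass at 24 h were mostly weak ones. Their median level in TWEAK was 2.14 CPM, against 7.97 CPM for those that passed, and 9 of the 12 were under 3 CPM. Among the 78 members with 2 CPM or more, 71 were lowered, and among the 23 below, 18. Besides Ccdc141, Bcl2l15, Cpa4, Cemip, Enpp3, Abcg1 and B3galt1 they were Gm28802 (log2 -0.22), Gm36470 (-0.19), 4732491K20Rik (-0.45), 3830432H09Rik and the gene with identifier 102641665.

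At 6 h, 50 members were not yet 2-fold above vehicle. NIK SMI1 lowered 61 of all 101 members at this time (60.4%, where 5.7% of all tested genes were lower), with a median log2 fold change of -0.61. The other induced genes were lower in 118 of 154 (76.6%) with a median of -0.62. No member was higher with NIK SMI1 at 6 h by edgeR, where 5.34% of all tested genes were. At an unadjusted p under 0.05 there was 1, and DESeq2 called none of the 91 members to which it gave an adjusted p. The decrease exceeded 1.5-fold in 40 members (39.6%, against 1.1% of all tested genes), and 81 members had all samples with NIK SMI1 below all TWEAK samples (12.1% of all tested genes did). Lowered at both times were 60 members, 29 passed at 24 h without passing at 6 h, and B3galt1 passed at 6 h alone. Whether the effects differed between the times was not tested, because the TWEAK samples of both times chose the members. In the 51 members that were at least 2-fold up at 6 h, the median share of induction kept was 26.8% at 6 h and 27.1% at 24 h, and it was lower at 24 h in 28 of them. Cxcl10 kept 62.5% ± 18.03 at 6 h and 17.7% ± 5.11 at 24 h, and Icam1 38.2% ± 10.3 and 14.7% ± 4.801, while Il18r1 went the other way with 38.3% ± 2.78 and 56.4% ± 2.23 (SD over the 3 samples with NIK SMI1).

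Levels in the samples with TWEAK and NIK SMI1 entered none of the ratios of the rule, so their own change from 6 h to 24 h did not choose the members. Of the 101 members, 44 (43.6%) were higher at 24 h than at 6 h in these samples, where 16.9% of all tested genes were, and 10 (9.9%) were lower, where 17.1% were. Among the other induced genes, 38 of 154 (24.7%) were higher and 47 (30.5%) lower. The median log2 difference was 0.23 for the members, -0.056 for the other induced genes and 0.0057 for all tested genes. Ngfr went from 9.38, 8.704 and 8.09 CPM at 6 h to 26.01, 23.7 and 25.6 CPM at 24 h (log2 1.43 ± 0.076 (SE), edgeR adjusted p = 3.01e-14). Plxnd1 rose from 14., 14.4 and 12.6 CPM to 31.2, 29.7 and 30.4 CPM (edgeR adjusted p = 5.36e-14), and Fyb rose from 2.56, 2.12 and 2.05 CPM to 7.67, 6.47 and 6.43 CPM (edgeR adjusted p = 5.18e-10). Phyh, Mmp9, Stra6, Ppp1r12b, Traf1 and Il18r1 also rose, by 0.77, 0.85, 0.89, 0.48, 0.73 and 0.36 on the log2 scale. Among those that fell were Xirp2 (-0.70), Abcb1a (-0.58), Ido2 (-2.34, on few reads), Sdcbp2, a syntenin relative (-0.45), and Vegfc (-0.20). Vehicle samples, which entered the rule, are a description only, and there 3 members were higher at 24 h (15.5% of all tested genes) and 31 lower (14.4% of all tested genes). The islet marker sums were 22.3 to 24.3 CPM with NIK SMI1 at 6 h and 0.654 to 0.975 CPM at 24 h, and their part in these changes was not tested.

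**Figure D5:**
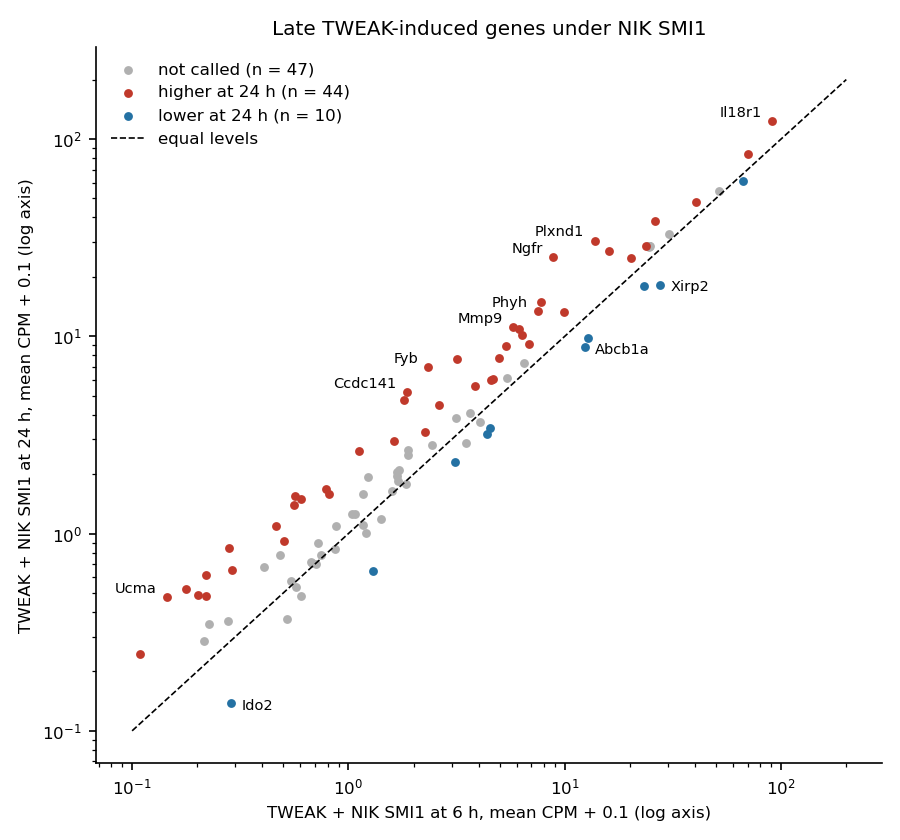
Mean CPM + 0.1 of the 101 members with TWEAK and NIK SMI1 at 24 h (vertical, log axis) against 6 h (horizontal, log axis), with a dashed line of equal levels. Red members (44) were higher at 24 h and blue ones (10) lower by edgeR, and Ngfr and Plxnd1 lie well above the line while Xirp2 and Ido2 lie below it.

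NIK SMI1 did not return most members to the vehicle level. At 24 h, 81 members (80.2%, where 8.07% of all tested genes were higher) stayed above vehicle with TWEAK and NIK SMI1, with a median log2 fold change of 1.14, and 123 of the 154 other induced genes (79.9%) did. This comparison shares its vehicle samples with the rule. Members that kept little were Tnfrsf9 (log2 0.066 ± 0.40 (SE) against vehicle, edgeR adjusted p = 0.947), Fam167a (0.20 ± 0.13 (SE), edgeR adjusted p = 0.357), Gdnf (0.34 ± 0.19 (SE), edgeR adjusted p = 0.249) and Adam19 (0.42 ± 0.27 (SE), edgeR adjusted p = 0.332), none of which passed. None was below vehicle, also not at an unadjusted p under 0.05 or by DESeq2, where 9.83% of all tested genes were lower. At 6 h, 35 members (34.7%, where 7.23% of all tested genes were higher) were above vehicle with NIK SMI1, and by edgeR 0 were below it, where 6.7% of all tested genes were lower (2 at an unadjusted p under 0.05, 0 by DESeq2). The islet marker sums also differed between vehicle (20.9 to 27.8 CPM) and TWEAK with NIK SMI1 at 24 h, and their part in this comparison was not tested.

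Of the lists of related genes, the members held Traf1 of 24 genes of the TWEAK and NF-κB pathway, Ccl5, Cxcl10, Il18rap and Il1rl1 of 24 tested cytokines, chemokines and receptors, Mmp9, Adam19, Col5a3 and Icam1 of 20 tested genes of matrix and adhesion, and Pglyrp2 of 11 tested genes of complement and antimicrobial defence. The lists of 21 tested interferon-stimulated and 13 tested antigen presentation genes held no member, which with 101 members among 15521 tested genes says nothing particular about them, and Cxcl10 and Ifitm3, which interferons are known to induce, were not on the first of these lists. Among the 23 pathway genes that were not members, TWEAK raised 17 at 6 h (11.7% of all tested genes were higher) and 18 at 24 h (18.3% of all tested genes), and lowered none at 6 h and 2 at 24 h. NIK SMI1 lowered 13 at 6 h and 17 at 24 h (5.7% and 8.29% of all tested genes), with a median of -0.36 at 24 h, and raised 2 and 1 (5.34% and 10.2% of all tested genes). Nfkb2, the p100 precursor, was at 132 ± 5.25 CPM in vehicle and 481 ± 12.8 CPM in TWEAK at 24 h, and TWEAK raised it by log2 values of 1.90 at 6 h and 1.87 at 24 h, while NIK SMI1 lowered it by -0.55 ± 0.036 (SE) at 24 h (edgeR adjusted p = 5.81e-12). Relb, the partner of p52, was raised by 0.82 at 6 h and 1.16 at 24 h, and the inhibitors Nfkbia by 2.56 and 2.77 and Nfkbie by 2.47 and 2.93. Map3k14, which encodes NIK itself, rose with TWEAK (0.95 at 24 h) and was higher still with NIK SMI1 (0.33 ± 0.052 (SE), edgeR adjusted p = 3.38e-05), and the TWEAK receptor gene Tnfrsf12a did not pass the test for either contrast at 24 h (0.0072 and -0.012). Of the 20 cytokines, chemokines and receptors that were not members, TWEAK raised 13 and lowered 3 at 24 h, and NIK SMI1 lowered 13 and raised 1. Of the 16 matrix and adhesion genes TWEAK raised 8 and lowered 2 at 24 h, and NIK SMI1 lowered 7 and raised 0. Of the 10 complement and antimicrobial genes TWEAK raised 3 and lowered 5, and NIK SMI1 lowered 2 and raised 0. Of the 21 interferon-stimulated genes TWEAK raised 6 and lowered 6, and NIK SMI1 lowered 5 and raised 2. Of the 13 antigen presentation genes TWEAK raised 10 and lowered 0, and NIK SMI1 lowered 8 and raised 0. Over all tested genes at 24 h, TWEAK raised 18.3% and lowered 20.7%. Among the cytokines, Ccl9 and Ccl2 had 24 h effects of 5.66 and 3.61 and 6 h effects of 5.36 and 3.37. Vcam1, an adhesion molecule like Icam1, was raised by 4.21 at 6 h and 4.54 at 24 h and lowered by NIK SMI1 by a log2 fold change of -2.82 ± 0.061 (SE) (edgeR adjusted p = 5.54e-22) at 24 h.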

How the data were processed

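RNASeq was done on 18 samples of primary murine RPTEC in 6 groups of 3, grouped by the agent and time in the labels. The authors aligned reads with GSNAP through HTSeqGenie to the mouse genome (NCBI build 37) and deposited, for each Entrez gene, the count of uniquely aligned reads in exons without normalization, together with RPKM values scaled by the exonic width and the reads of the sample, and that width in bases. Labels and methods differ on the sequencer, read length and input RNA. The deposited counts were used in all tests, and the RPKM values only to compare levels per length.

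CPM were computed from the summed counts. Genes with more than 10 reads in at least 4 samples were tested, all samples in 1 fit of 6 groups (edgeR 4.0.16 under R 4.3.3, TMM, glmQLFit and glmQLFTest), with Benjamini-Hochberg adjustment and a threshold of 0.05. Standard errors came from the F statistic. Scripts were checked beforehand on simulated counts in which 200 genes were changed. At the depths given above, 3 reads are the smallest level read as present. Alternatives were DESeq2 1.42.0, its size factors, other filters, smaller fits, other membership rules and leaving out samples. Counting the Ugt1a genes once and using TWEAK sample 2 alone were added after seeing the data.

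The members and gene lists were chosen with earlier results of these data known, and functional groups were assigned after the members were seen. Named genes were the 12 members with the highest late ratio, the 8 with the highest level, the 8 with the lowest and the 8 with the highest NIK SMI1 effect, those in a list or family, and the 4 on each side of a threshold. Others were named after their values were seen, as examples. Symbols and promoters came from RefSeq by Entrez identifier, and no position was converted between builds. Selection, motif searches and figures were made in Python 3.11.15.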

Additional observations from a re-analysis of the deposited data

Results flagged for a closer look

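Lce1g, of the cornified envelope, is the 1 member whose samples moved in opposite directions with NIK SMI1 at the 2 times. At 24 h all samples with NIK SMI1 (2.32, 3.42 and 3.51 CPM) lay below all TWEAK samples (5.86, 4.69 and 4.33 CPM), a log2 fold change of -0.68 ± 0.15 (SE) (edgeR adjusted p = 0.00145). At 6 h all samples with NIK SMI1 (4.29, 4.59 and 3.88 CPM) lay above all TWEAK samples (3.19, 3.56 and 3.27 CPM), with a log2 value of 0.35 ± 0.15 (SE) that did not pass (edgeR adjusted p = 0.172). The difference between the times was not tested, because TWEAK samples of both times chose the members. Groups of 3 samples are too small for the check of single samples.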

How the results depend on the processing

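The number of members lowered by NIK SMI1 at 24 h was 89, and 88 to 91 under DESeq2, its size factors, other filters and a fit of the groups compared, 84 to 87 without each replicate in turn, 81 against TWEAK sample 2 alone and 82 of 94 with the Ugt1a genes counted once. The median at 24 h of -0.98 ranged from -1.04 to -0.91 without each replicate, and was -0.91 against TWEAK sample 2 alone, -1.07 with the Ugt1a genes counted once, and -0.87, -0.87 and -0.93 with each TWEAK sample held out of the choice of members. At 6 h the median of -0.61 ranged from -0.65 to -0.59 without each replicate and was -0.64 with the Ugt1a genes counted once, and the count of 61 became 40 when a decrease beyond 1.5-fold was asked for as well. The number of members was 101, and 67 with 1 CPM in place of 0.1 CPM added (66 of them shared), 47 with a late ratio of at least 2, and 95 to 107 without each replicate. Of 1111 values of single members under the alternatives, 1084 kept direction and side of the threshold, 23 lost the call, 4 gained it and 0 reversed. These values leave out the fit against TWEAK sample 2 alone. The lost calls were of 8 weakly expressed members, among them Gm32605, Tmod2, Tmem151b and Spaca7, and the gained calls of Cpa4, Cemip and the gene with identifier 102641665. Against TWEAK sample 2 alone further members lost the call, as named above, and Gm36470 changed direction (log2 0.25). No paired analysis was possible because the labels give no replicate numbers, and the numbers 1 to 3 only name samples. Depth limits the 23 members under 2 CPM most.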
